A study of Mus musculus with 27 samples.

Results

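The genes described here are 39 DNA repair and checkpoint genes, chosen by symbol from homologous recombination, the Fanconi anaemia pathway and the DNA damage checkpoint. All 39 were present among the 24062 gene symbols of the count table, and the rule that picks them uses no measured value. They were followed across 27 bulk RNA sequencing libraries of C57BL/6 mice, 3 in each of 9 groups, in a series on altered Foxm1, whose product is a forkhead protein that switches on G2 and mitotic genes. Experiment 1 held mouse embryonic fibroblasts, primary cells grown out of embryos, labelled WT, KO or KO-NTD. Experiment 2 held fibroblasts labelled WT, WT-NTD, Het or Het-NTD, and whole lungs, WT or Het by label, were from animals 10 days old. WT was read as wild type, KO as knockout and Het as heterozygous for Foxm1. The labels do not explain NTD, say which part of Foxm1 was altered, or say whether the libraries of a group stem from separate embryos, animals or cultures; p-values therefore cover only the spread among these libraries. The fibroblasts were of early passage and growing asynchronously, harvested near 90% confluence.

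A DNA double-strand break or a stalled replication fork is sensed by the kinases ATM and ATR, which signal through adaptors to the checkpoint kinases CHK2 and CHK1 and hold the cell cycle. Broken ends are then resected to single strands, and homologous recombination, which needs BRCA1, BRCA2 and their partners, repairs them from the intact sister chromatid, while the Fanconi core complex ubiquitinates the FANCD2-FANCI pair to start repair of crosslinked strands. Many of these genes are expressed most in S and G2, so their mRNA is usually higher in dividing than in resting cells.

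Promoter sequence bears on the members because their transcription is commonly tied to the cell cycle through E2F sites, through the CHR element of G2 and mitotic genes, and through CCAAT boxes, while FoxM1 itself belongs to the forkhead family. RefSeq promoters (GRCm38.p6), taken from 250 bases before to 30 after the start, matched 31 of the 39 members. The letters searched on both strands were TTTGGCGC, TTTGGCGG, TTTCGCGC and TTTCGCGG for E2F, TTTGAA and TTCGAA for CHR, CCAAT, and ATAAACA and GTAAACA for forkhead. The 4 promoters printed next are examples: Clspn and Blm, among the members that fell in Het fibroblasts, Trp53bp1, which rose there, and Fancc, which was higher in lung. Capitals mark matches to E2F or CCAAT letters on either strand.
Clspn, chr4:126556730-126557009, plus strand: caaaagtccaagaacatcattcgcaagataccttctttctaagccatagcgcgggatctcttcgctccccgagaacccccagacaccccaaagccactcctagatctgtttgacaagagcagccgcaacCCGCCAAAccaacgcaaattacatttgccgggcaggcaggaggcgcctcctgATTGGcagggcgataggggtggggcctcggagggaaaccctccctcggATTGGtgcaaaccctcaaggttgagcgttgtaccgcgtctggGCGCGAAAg
Blm, chr7:80534969-80535248, minus strand: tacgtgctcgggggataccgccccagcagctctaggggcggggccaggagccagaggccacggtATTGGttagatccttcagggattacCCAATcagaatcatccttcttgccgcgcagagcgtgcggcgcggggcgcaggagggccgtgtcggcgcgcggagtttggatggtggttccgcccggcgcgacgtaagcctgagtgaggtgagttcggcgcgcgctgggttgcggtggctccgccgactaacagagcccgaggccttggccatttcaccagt
Trp53bp1, chr2:121271378-121271657, minus strand: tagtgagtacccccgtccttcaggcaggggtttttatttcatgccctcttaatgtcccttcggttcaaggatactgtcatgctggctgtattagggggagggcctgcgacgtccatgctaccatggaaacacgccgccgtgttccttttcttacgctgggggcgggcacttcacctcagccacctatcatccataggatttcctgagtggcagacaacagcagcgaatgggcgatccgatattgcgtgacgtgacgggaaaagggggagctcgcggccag
Fancc, chr13:63431716-63431995, minus strand: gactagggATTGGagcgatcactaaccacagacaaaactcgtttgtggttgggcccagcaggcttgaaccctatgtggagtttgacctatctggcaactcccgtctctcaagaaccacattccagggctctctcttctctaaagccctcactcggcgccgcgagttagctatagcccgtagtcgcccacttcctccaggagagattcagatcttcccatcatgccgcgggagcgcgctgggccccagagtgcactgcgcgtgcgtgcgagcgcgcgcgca
The Clspn window held 2 E2F and 2 CCAAT matches, the Blm window 2 CCAAT matches, the Fancc window 1 CCAAT match and the Trp53bp1 window none of the letters searched. Of the other members that fell in Het fibroblasts, Fanci and Parp1 held none of the letters either, and Exo1 had no RefSeq promoter. These few windows cannot show whether matches went with the direction of change, which was not tested. The RefSeq start of Fancc lies 65533 bases from the outermost start in GENCODE M21, so this window is 1 of several possible promoters of the gene. For Fancl, Fanci, Chek1 and Fancg the distance was 949, 409, 407 and 205 bases. Their windows held no match and are counted so in the shares below, although a promoter at the other start was not searched.

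Over the 31 members with a promoter, 4 (12.9%) held an E2F match, namely Topbp1, Clspn, Brca2 and Brip1, against 1.94% of the 20291 RefSeq promoters of genes in the count table. CCAAT was present in 20 of 31 (64.5%, against 37.1%). A CHR match was present in 2 of 31 (6.45%, against 16.3%), Atr and Bard1, and a forkhead match in 1 of 31 (3.23%, against 6.5%), Brca2. The median GC content was 58.9% in the members' promoters and 56.4% in those of the table. A match describes letters only and marks no bound site.

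Total counts ran from 29730700 to 69517800 per library (47380800 to 69517800 in experiment 1, 30247000 to 46625800 in experiment 2 and 29730700 to 50326700 in lung). The smallest count of any member in any library was 60, and all 39 members passed the filter on low counts in every fit, so none was lost to depth. Levels are given as CPM, the usual unit of counts relative to library size, with library sizes scaled by the trimmed mean of M values (TMM) within a fit, so CPM of 1 gene differ slightly between fits. Foxm1 itself was 146 ± 6.64 CPM in the libraries labelled KO and 136 ± 3.34 CPM in WT (SD, n = 3), a ratio of 1.07 (edgeR quasi-likelihood adjusted p = 0.565), so its count did not check the label KO. It rose in each NTD group, with ratios of 2.47 in KO-NTD against KO, 2.36 in WT-NTD against WT and 2.68 in Het-NTD against Het, and was 0.881 times the WT level in Het (edgeR adjusted p = 0.249). All Het libraries (126, 131 and 130 CPM) nevertheless lay below all WT libraries of experiment 2 (145, 147 and 149 CPM). Foxm1 had an SD of 2.63 CPM for Het and 1.99 for WT. The same fit held the more variable NTD libraries (SD 34.4 for Het-NTD, 56.9 for WT-NTD). The adjusted p therefore does not show equal Foxm1 levels. Fibroblast markers summed to 39941 to 60346 CPM in the cultures, where markers of alveolar and airway epithelium summed to at most 8.76 CPM. In lung the epithelial markers summed to 24172 to 50134 CPM. Macrophage markers were present in the cultures and uneven: their 11 genes summed to 57.4 to 95.03 CPM in WT, 12.6 to 385 CPM in KO and 10.0 to 282 CPM in KO-NTD of experiment 1.

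The members formed a broad range of levels in fibroblasts. Over all 27 libraries scaled together, the lowest fibroblast group mean was 4.85 CPM (Rad51c, a recombination mediator, in KO) and the highest 249 CPM (Topbp1, the ATR activator, in KO-NTD). Per kilobase of merged exon length in WT fibroblasts of experiment 2, the histone H2afx, whose phosphorylated form marks breaks, stood highest at 93.6 ± 3.5 CPM per kb (SD, n = 3), followed by the poly(ADP-ribose) polymerase Parp1 at 29.1 ± 0.53, Topbp1 at 18.3 ± 0.81, the mismatch recognition gene Msh6 at 15.7 ± 0.88 and Nbn of the MRE11 complex at 13.6 ± 0.38 CPM per kb. The lowest were Palb2, the bridge between BRCA1 and BRCA2, at 0.925 ± 0.052, Rad51c at 1.16 ± 0.07, Brca2, a central recombination mediator, at 1.31 ± 0.11 and Fancc of the core complex at 1.35 ± 0.064 CPM per kb. With the longest protein-coding transcript as the length, H2afx, Parp1, Topbp1 and Msh6 kept the first 4 places and the lowest 4 were Rad51c, Brca2, Palb2 and Bard1, the partner of BRCA1.

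Summed over the 39 members, the 3 wild type libraries held 1549, 1701 and 1660 CPM in experiment 1, 1490, 1463 and 1504 CPM in experiment 2 and 533, 532 and 522 CPM in lung. The fibroblast sums thus exceeded the lung sums in each library, and the experiments differed less from each other than from lung. Within a group, the median coefficient of variation of the members was 5.22 to 8.58% in fibroblasts, 10.8% in WT lung and 15.6% in Het lung.

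**Figure D1:**
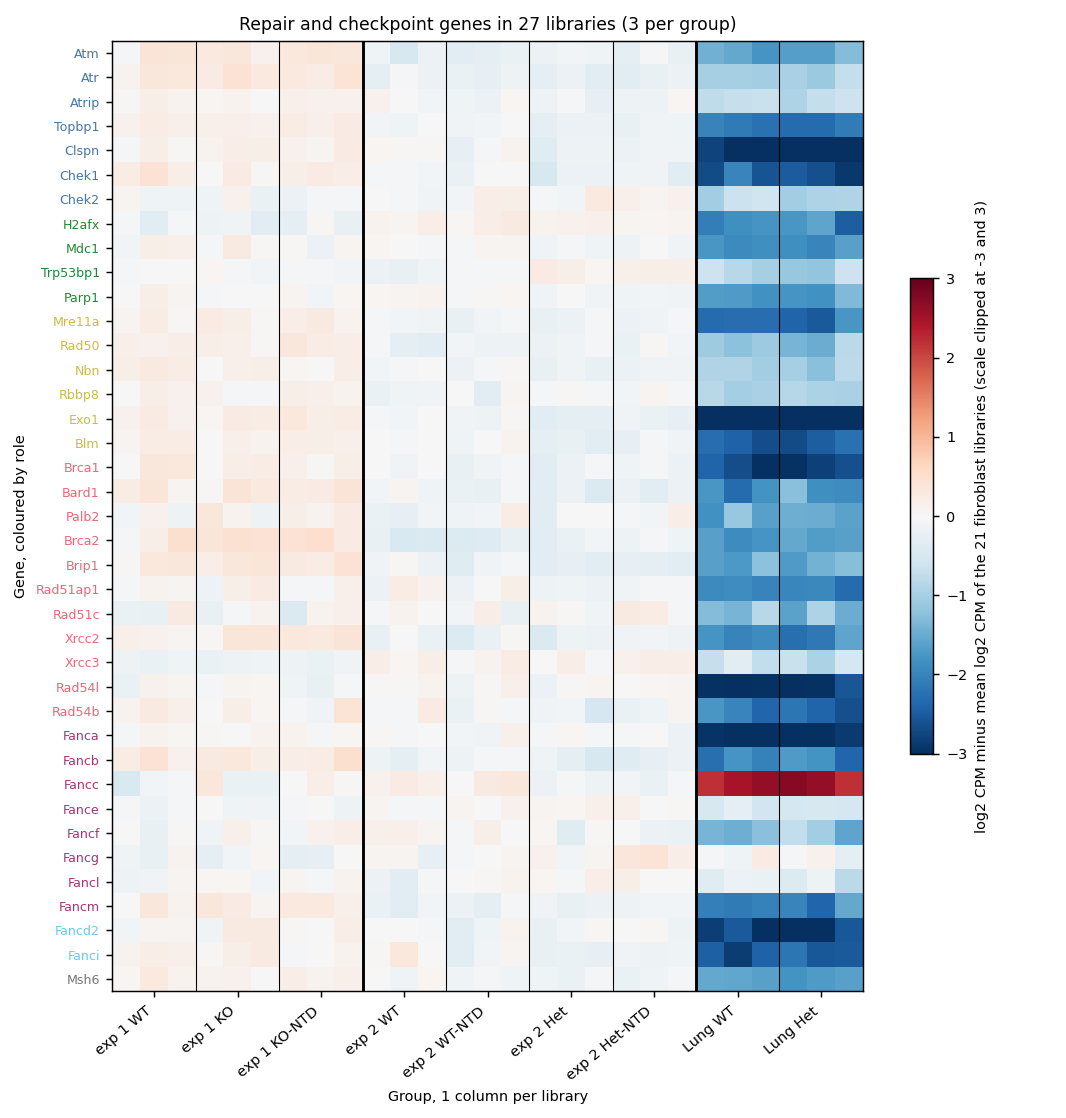
Log2 CPM of each of the 39 genes (vertical axis, coloured by role) in each of the 27 libraries (horizontal axis, 3 columns per group), relative to the mean log2 CPM of the 21 fibroblast libraries and scaled over all libraries together. Most genes are low in the 6 lung columns, where Fancc alone is strongly high. Differences among the 21 fibroblast columns are smaller for most genes. Fibroblast group means of a gene differ by at most 1.73-fold (Brca2, 17.9 CPM in WT of experiment 2 and 30.9 CPM in KO).

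The libraries labelled KO were set against WT in experiment 1, which asked whether repair genes changed in fibroblasts labelled as lacking Foxm1. None of the 39 passed the test in either direction (edgeR quasi-likelihood test, Benjamini-Hochberg adjusted p under 0.05; 0 at an unadjusted p under 0.05 and 0 with DESeq2), beside 0.447% of all 14551 genes tested (0.124% higher and 0.323% lower). The members' log2 fold changes ran from -0.17 (Chek1) to 0.23 (Brca2) with a median of 0.02, against 0.01 over all genes. In no member did the 3 KO and the 3 WT values separate, whereas 8.47% of all genes separated upward and 8.87% downward. In the same libraries 10 of 25 genes of G2 and mitosis fell (median -0.16).

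Chek1, the kinase that ATR activates, was 19.2, 22.9 and 19.9 CPM in KO and 22.4, 25.5 and 21.8 CPM in WT. The groups overlapped, and the log2 fold change was -0.17 ± 0.09 (SE, edgeR adjusted p = 0.493). Brca2 was 27.6, 29.7 and 29.1 CPM in KO and 20.3, 23.9 and 29.4 CPM in WT, a log2 fold change of 0.23 ± 0.13 (edgeR adjusted p = 0.514), and 1 WT library lay among the KO values. Xrcc2, a recombination mediator, was 13.5, 17.0 and 17.1 CPM in KO and 14.5, 14.1 and 13.7 CPM in WT (log2 fold change 0.17 ± 0.10, edgeR adjusted p = 0.531). By role, all 8 genes of the Fanconi core complex lay above 0, between 0.01 and 0.21, and 4 of the 6 genes of end resection and helicases lay below it, but no single gene passed. The lowest of the 8, Fancg, stood at percentile 50.5 of the fold changes of all genes, and the highest, Fancc, at percentile 80.9. The 95% intervals bound what could have been missed: in 38 members they lay within a 1.5-fold change either way, and in all 39 within 2-fold.

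Each NTD group was set against the group of the same Foxm1 label without NTD. None of the 39 passed in KO-NTD against KO (edgeR; 0 at an unadjusted p under 0.05), in WT-NTD against WT (3 unadjusted) or in Het-NTD against Het (1 unadjusted), and DESeq2 called none in these 3 comparisons. Over all genes edgeR called 0.00687%, 0.0140% and 0.0140% in the same order, the last being 0.00699% in each direction, with Foxm1 among those called each time. Groups separated upward in 3 members in KO-NTD against KO (Blm, Rad50 and Topbp1, beside 5.74% of all genes), in 2 in WT-NTD against WT (Fancl and Trp53bp1, 4.48%) and in 4 in Het-NTD against Het (Exo1, Fancg, Fanci and Rad51ap1, 8.16%). Downward, 0 members separated in KO-NTD against KO (5.42% of all genes), 0 in WT-NTD against WT (4.85%) and 1, H2afx, in Het-NTD against Het (8.15%).

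Fanci, the partner of FANCD2 in the ubiquitinated pair, had the lowest p in KO-NTD against KO, at 17.9, 18.7 and 19.9 CPM against 19.3, 21.3 and 22.8 CPM (log2 fold change -0.16 ± 0.08, edgeR adjusted p = 0.714). Rad50, the ATPase of the MRE11 complex, was 65.8, 61.1 and 60.0 CPM against 59.6, 58.3 and 54.9 CPM (0.11 ± 0.05, edgeR adjusted p = 0.714). Rbbp8, which encodes the resection factor CtIP, was 39.8, 39.4 and 38.4 CPM against 38.7, 34.7 and 34.7 CPM (0.12 ± 0.06, edgeR adjusted p = 0.714). The Rad50 values separated narrowly and those of the other 2 genes overlapped.

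In WT-NTD against WT, Trp53bp1, which encodes the end-protecting chromatin protein 53BP1, was 52.3, 51.5 and 52.2 CPM against 47.2, 46.2 and 49.1 CPM, a log2 fold change of 0.13 ± 0.05 (edgeR adjusted p = 0.654). Fancl, the ubiquitin ligase of the core complex, was 8.33, 8.51 and 8.93 CPM against 7.34, 6.6 and 7.93 CPM (0.24 ± 0.10, edgeR adjusted p = 0.663). Both genes separated without passing the test, and Fanci, at 15.4, 18.2 and 20.5 CPM against 19.9, 24.2 and 19.7 CPM (-0.24 ± 0.10, edgeR adjusted p = 0.663), overlapped. In Het-NTD against Het, Fancg of the core complex was 11.9, 12.4 and 10.8 CPM against 10.2, 8.90 and 9.85 CPM (0.28 ± 0.10, edgeR adjusted p = 0.751). Exo1, the exonuclease of long-range resection, was 28.1, 26.5 and 25.6 CPM against 24.0, 24.5 and 25.05 CPM (0.13 ± 0.06, edgeR adjusted p = 0.793), and Blm, the Bloom helicase, was 24.9, 28.3 and 27.8 CPM against 24.3, 25.6 and 23.8 CPM (0.14 ± 0.07, edgeR adjusted p = 0.818). In that comparison 30 of 39 members lay above 0, all 11 recombination mediators among them (0.03 to 0.15), beside 7224 of 14314 genes in all, and the members' median was 0.06. The same Het libraries serve in Het against WT, where the members' median was -0.09, so these comparisons are not independent.

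The comparison of Het with WT fibroblasts in experiment 2 addressed the heterozygous genotype. Of the 39 members 5 fell and 1 rose, 15.4% in all, beside 16.5% of the 14314 genes tested (8.61% lower and 7.89% higher), so the share of members called was near the background. Exo1, Blm, Fanci, Parp1 and Clspn, the adaptor through which ATR activates CHK1, fell by 0.15 to 0.36 on the log2 scale, and Trp53bp1 rose by 0.34. The median over the members was -0.09, against 0.01 over all genes, and 27 of 39 lay below 0. The member just below 0, Rad51c, stood at percentile 48.8 of the fold changes of all genes. Groups separated downward in 13 members (33.3%, beside 16.8% of all genes) and upward in 3 (7.69%, beside 17.1%). The 13 were Bard1, Blm, Brip1, Chek1, Clspn, Exo1, Fancc, Fancf, Fanci, Nbn, Parp1, Rad54b and Topbp1, and the 3 were Fancl, Rbbp8 and Trp53bp1.

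Of the damage signalling genes, Clspn was 44.9, 52.2 and 51.6 CPM in Het and 59.1, 58.9 and 58.6 CPM in WT, a log2 fold change of -0.25 ± 0.08 (SE, edgeR adjusted p = 0.0456). All Het libraries lay below the WT libraries, and Het 1 was the lowest. Clspn did not pass when any 1 of the 6 libraries was left out. The other 6 signalling genes did not pass; Topbp1 stood at 179 ± 7.06 CPM against 197 ± 8.54 CPM (edgeR adjusted p = 0.0796).

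Among the chromatin genes, Trp53bp1 (chromosome 2, 121193281 to 121271407, minus strand, GRCm38) was 63.3, 61.2 and 55.9 CPM in Het and 47.2, 46.2 and 49.1 CPM in WT. All 3 Het values lay above the 3 WT values, with Het 3 the lowest, and the log2 fold change was 0.34 ± 0.05 (edgeR adjusted p = 0.000702). This call held in each of the 6 fits that left out 1 library and in the 7 other settings tried. Trp53bp1 shares 2130 exon bases with Tubgcp4 of the opposite strand, and strand is not marked by the library kit. Tubgcp4 stood at 25.9 ± 1.42 CPM in Het against 25.8 ± 1.92 CPM (log2 fold change 0.00). Parp1 (chromosome 1, 180568924 to 180601254, plus strand) was 130, 141 and 130 CPM in Het and 145, 150 and 150 CPM in WT, a log2 fold change of -0.15 ± 0.04 (edgeR adjusted p = 0.0357). Its groups separated with Het 2 close to WT, and it passed in 2 of the 6 fits that left out a library.

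Of the resection genes and helicases, Exo1 (chromosome 1, 175880581 to 175913489, plus strand) was 24.0, 24.5 and 25.05 CPM in Het and 29.4, 28.6 and 30.1 CPM in WT, a log2 fold change of -0.26 ± 0.06 (edgeR adjusted p = 0.0119). The groups were well apart, and Exo1 passed in each of the 6 fits that left out a library. Blm (chromosome 7, 80454733 to 80535119, minus strand) was 24.3, 25.6 and 23.8 CPM in Het and 29.4, 28.9 and 29.4 CPM in WT (-0.25 ± 0.07, edgeR adjusted p = 0.0281). Its values separated as clearly, but it passed in 1 of the 6 fits.

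No recombination mediator and no core complex gene passed in Het (edgeR; 2 of each at an unadjusted p under 0.05). With DESeq2, Bard1 and Fancc were called lower as well. Bard1 averaged 10.6 ± 0.994 CPM in Het against 12.8 ± 0.97 CPM (edgeR adjusted p = 0.0703), and Fancc was 8.80 ± 0.549 and 10.8 ± 0.548 CPM (edgeR adjusted p = 0.0708). The neighbour 2010111I01Rik, which shares exon bases with Fancc, itself fell (log2 fold change -0.57, edgeR adjusted p = 0.00214). Of the pair that the core complex modifies, Fanci (chromosome 7, 79391929 to 79450264, plus strand) was 16.5, 17.0 and 16.3 CPM in Het and 19.9, 24.2 and 19.7 CPM in WT, a log2 fold change of -0.36 ± 0.10 (edgeR adjusted p = 0.0311), the largest fall among the members. WT 2 stood above the other WT libraries, and Fanci passed in 2 of the 6 fits that left out a library. Fanci shares 921 exon bases with Polg on the other strand, which rose from 68.4 ± 3.86 to 79.3 ± 1.11 CPM (log2 fold change 0.21, edgeR adjusted p = 0.0129).

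**Figure D2:**
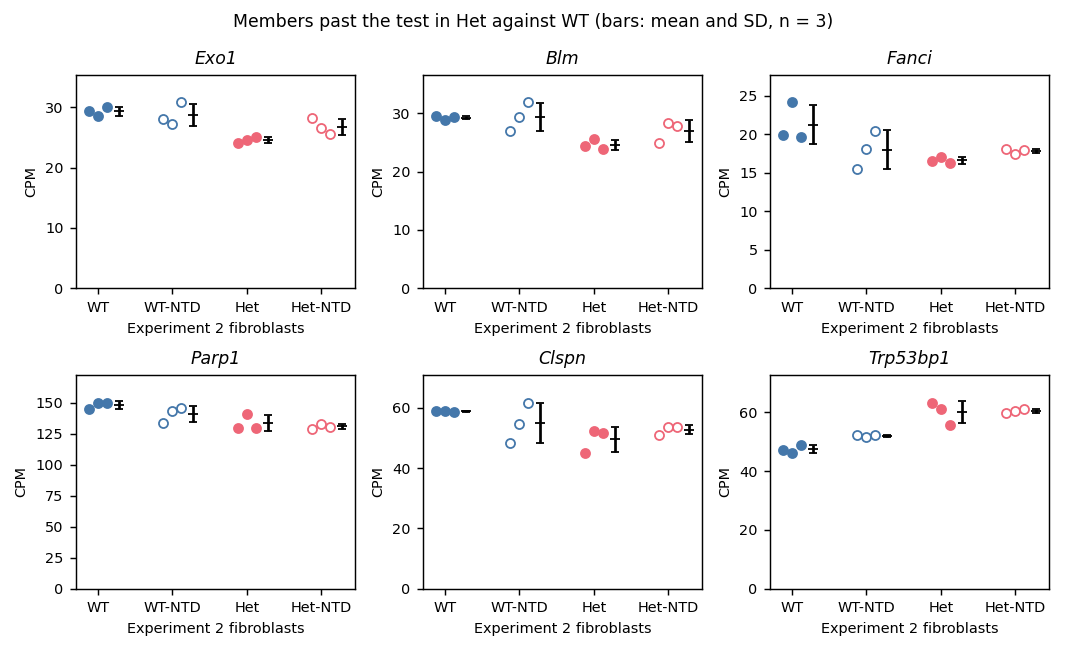
CPM (vertical axis from 0) of the 6 genes that passed in Het against WT, in each library of the 4 experiment 2 groups, with the mean and SD of 3 libraries as bars beside the points. Het points lie below WT for Exo1, Blm, Fanci, Parp1 and Clspn and above WT for Trp53bp1, where the Het-NTD points at 59.7 to 61.2 CPM also lie above WT-NTD at 51.5 to 52.3 CPM.

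Left-out libraries moved the count of 5 lower members to 1 without Het 1, 3 without Het 2, 1 without Het 3, 4 without WT 1 (Rad51ap1 among them), 1 without WT 2 and 2 without WT 3. Other cells in the cultures differed between the same groups: the 11 macrophage markers summed to 67.5, 11.4 and 26.6 CPM in Het and 182, 167 and 202 CPM in WT, 9 of the 11 fell, and none was at 0 in all 3 libraries of a group. With the mean log2 level of these markers as a covariate, no member was called lower and Trp53bp1 remained called higher (log2 fold change 0.38, edgeR adjusted p = 0.0412), while the genes called in all went from 1130 to 206 higher and from 1232 to 175 lower. The fitted log2 fold changes were then -0.26 for Exo1, -0.38 for Blm, -0.48 for Fanci, -0.29 for Parp1 and -0.49 for Clspn (edgeR adjusted p from 0.0509 to 0.239). Groups held 83.2% of the variance of that covariate, and its part in the result was not tested beyond this fit. In bulk libraries, fewer cells of a type and less RNA per cell cannot be told apart.

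Other repair genes were called in small numbers in Het against WT, where 16.5% of all genes were called (8.61% lower and 7.89% higher). No gene of the lists of end joining, nucleotide excision or other mismatch repair was called. Of 22 further recombination genes 3 fell, the recombination cofactor Sfr1 (149 ± 9.2 against 174 ± 5.7 CPM) and the single-strand binding subunits Rpa2 (32.4 ± 2.6 against 41.5 ± 1.5 CPM) and Rpa1 (127 ± 1.3 against 139 ± 4 CPM), and 1 rose, the Sfr1 partner Swi5 (144 ± 1 against 130 ± 6.7 CPM, edgeR adjusted p = 0.0426). Among 17 further checkpoint genes the fork protection partners Timeless (35.1 ± 1.5 against 43.5 ± 4.4 CPM) and Tipin (44.1 ± 2 against 49.3 ± 1.2 CPM) fell. Usp1, the deubiquitinase of FANCD2, fell among 10 crosslink repair genes (96.3 ± 3.5 against 116 ± 6.1 CPM), and the uracil glycosylase Ung among 14 genes of base excision (11.5 ± 0.54 against 16.1 ± 0.26 CPM, log2 fold change -0.48, edgeR adjusted p = 0.00235). Of 18 p53 targets 4 rose (Sesn2, Aen, Zmat3 and Trp53inp1) and 2 fell (Perp and Fas). Cell cycle lists had more members past the test than the 39 did. Beside 8.61% of all genes called lower, 15 of 30 genes of replication and G1/S fell (median -0.19). In the same comparison 20 of 25 genes of G2 and mitosis fell (median -0.33).

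Het-NTD against WT-NTD compared the genotypes again in libraries that the previous comparison did not use. The labels do not say whether groups with and without NTD came from the same embryos or cultures. Both comparisons also share the same fit and its estimate of the spread, so they are not shown to be independent repeats. Trp53bp1 rose once more, at 59.7, 60.5 and 61.2 CPM in Het-NTD and 52.3, 51.5 and 52.2 CPM in WT-NTD, a log2 fold change of 0.22 ± 0.05 (edgeR adjusted p = 0.0117). All Het-NTD values lay above the WT-NTD values, and both groups were tight. It was the 1 member of 39 that passed in edgeR, where 11.5% of all genes did (5.24% higher and 6.24% lower), and 6 members had an unadjusted p under 0.05. Fancc was 9.06, 8.35 and 9.40 CPM in Het-NTD and 9.43, 11.6 and 12.2 CPM in WT-NTD (-0.31 ± 0.10, edgeR adjusted p = 0.0754) and was called lower by DESeq2. Brca2 was 20.1, 21.9 and 20.6 CPM against 16.6, 17.0 and 18.9 CPM (0.26 ± 0.09, edgeR adjusted p = 0.077).

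The 5 members that fell in Het did not pass here, with log2 fold changes of -0.10 for Exo1, -0.12 for Blm, -0.02 for Fanci, -0.11 for Parp1 and -0.06 for Clspn. Separation was upward in 3 members (Brca2, Fancg and Trp53bp1, beside 16.3% of all genes) and downward in 3 (Fancb, Fancc and Parp1, beside 15.8%). The members' median was -0.01, against 0.00 over all genes. Of the other repair genes called in Het, Sfr1 again fell (log2 fold change -0.17) and Swi5 again rose (0.15). Rpa1, Rpa2, Timeless, Tipin, Usp1 and Ung were not called. The crosslink repair genes Fan1 (0.92) and Dclre1b (-0.43) were called here only. Genes of both cell cycle lists were again called lower, and Dut of replication and G1/S was called higher. Macrophage markers summed to 12.1 to 17.0 CPM in Het-NTD and 69.3 to 163 CPM in WT-NTD, and with their score as a covariate Trp53bp1 did not pass (log2 fold change 0.26, edgeR adjusted p = 0.202). Without WT-NTD 1, Fancc and H2afx were called lower.

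Over the 39 members the log2 fold changes of the 2 genotype comparisons, which share no library, had a Pearson correlation of 0.67 and a Spearman correlation of 0.70, and 29 (74.4%) had the same sign, beside a Pearson correlation of 0.78, a Spearman correlation of 0.65 and 73.9% over all genes. These are correlations across genes, which are not independent replicates. The difference between the comparisons was tested as an interaction, and no member passed (edgeR; 1 at an unadjusted p under 0.05, 0 of 14314 genes in all, and 0 members with DESeq2). Fanci had the largest such difference, 0.34 ± 0.14 (95% interval 0.03 to 0.65, edgeR adjusted p = 0.892). Trp53bp1 gave -0.12 ± 0.07 and Exo1 0.16 ± 0.08 (edgeR adjusted p = 0.892 for both).

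**Figure D3:**
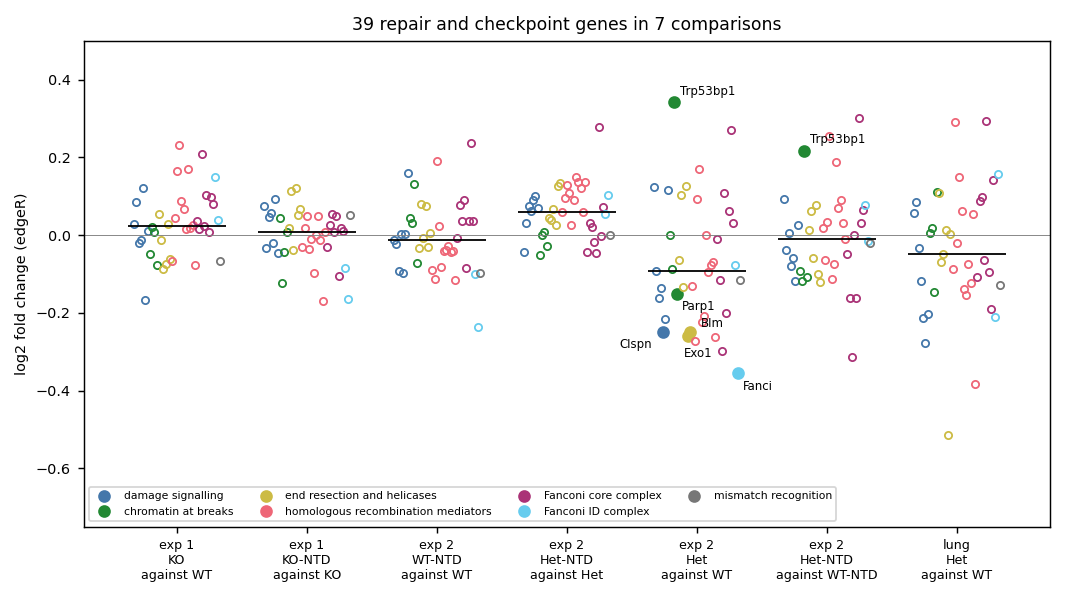
Log2 fold change (vertical axis, edgeR) of each of the 39 genes in 7 comparisons (horizontal axis), coloured by role. Filled points passed at an adjusted p under 0.05 and black lines are medians; the 5 named falls and the rise of Trp53bp1 in Het against WT and its rise in Het-NTD against WT-NTD are the filled points.

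The KO and the Het libraries were set against each other by testing whether the KO effect of experiment 1 differed from the Het effect of experiment 2. No member passed in edgeR (8 at an unadjusted p under 0.05; 0.324% of 14510 genes passed), and DESeq2 called Clspn higher and Trp53bp1 lower. Trp53bp1 differed by -0.35 ± 0.08 (SE; 95% interval -0.53 to -0.17, edgeR adjusted p = 0.0866), Clspn by 0.35 ± 0.10 (0.14 to 0.57, edgeR adjusted p = 0.126) and Exo1 by 0.27 ± 0.08 (0.08 to 0.46, edgeR adjusted p = 0.153). Without KO 1, Clspn, Exo1 and Fanci were called higher and Trp53bp1 lower, but that fit called 985 genes higher and 586 lower in all, against 22 and 25 with every library, and DESeq2 called 447 and 280. In KO against WT itself, Trp53bp1 had a log2 fold change of 0.01 (95% interval -0.10 to 0.11), while in Het against WT its interval was 0.24 to 0.44.

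In lung, Het against WT asked the same question in a tissue. No member passed (edgeR, with 0 at an unadjusted p under 0.05 and 0 with DESeq2), nor did any of the 15933 genes tested, of which 114 had an unadjusted p under 0.05. That is a smaller share than the 0.05 that a test yields where nothing differs, so the test was cautious here. The absence of members at that level therefore says little about them. Exo1 had the lowest p, at 2.40, 2.26 and 3.20 CPM in Het and 3.30, 4.47 and 3.48 CPM in WT, a log2 fold change of -0.51 ± 0.25 (edgeR adjusted p = 1). All 3 Het values lay below the 3 WT values, with Het 3 close to WT 1. Clspn was 8.19, 7.77 and 8.25 CPM in Het and 10.5, 8.67 and 8.94 CPM in WT (-0.21 ± 0.15, edgeR adjusted p = 1). Rad54b, a paralog of the RAD54 motor, overlapped, at 2.50, 2.10 and 1.76 CPM against 3.32, 2.81 and 2.13 CPM (-0.38 ± 0.27, edgeR adjusted p = 1).

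Separation in lung was downward in 3 members (Clspn, Exo1 and Msh6; 7.69%, beside 2.28% of all genes) and upward in 0 (1.96% of all genes). The lung data were less precise. The 95% interval lay within a 1.5-fold change in 21 of 39 members and within 2-fold in 37. Small changes could thus have been missed in many members. Macrophage markers summed to 1223 to 1905 CPM in Het lung and 1618 to 2066 CPM in WT lung, and epithelial markers to 24172 to 50134 and 27812 to 36979 CPM; their part in these values was not tested. No member passed the test of the Het effect in lung against that in fibroblasts (edgeR interaction; 2 at an unadjusted p under 0.05, 0 with DESeq2, beside 1.12% of 16364 genes called, 0.813% higher and 0.312% lower). The largest differences were 0.57 for Bard1 (95% interval -0.06 to 1.20), 0.52 for Fanci (0.04 to 0.996) and -0.48 for Trp53bp1 (-0.91 to -0.04), with edgeR adjusted p of 0.513, 0.37 and 0.365. Trp53bp1 was called in that test without Lung Het 3, where 259 genes were called lower in all against 51.

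The largest differences among the members were those between lung and fibroblasts. Against WT fibroblasts of experiment 2, 36 of 39 members were lower in WT lung and 1 was higher, beside 37.2% and 43.4% of the 15931 genes tested (80.6% in all). All 36 separated downward (37.8% of all genes) and Fancc upward (44.6%). Against WT fibroblasts of experiment 1, with the same lung libraries, the counts were again 36 and 1, beside 38.4% and 43.4% (81.9% in all), and 37 members separated downward (39.8%) and 1 upward (45.1%). The members' median log2 fold change was -1.73 and -1.81, against 0.12 and 0.11 over all genes. Since upper-quartile scaling moved the median of all genes to 0.27 and 0.30, the members' medians are best read relative to it: they lay at -1.85 and -1.92 under TMM and at -1.85 and -1.92 under upper-quartile scaling. Tissue, culture, age and any batch cannot be told apart here.

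The differences varied by role. In the order experiment 2 then experiment 1, the median log2 fold change was -2.73 and -2.75 for the FANCD2-FANCI pair, -1.73 and -1.96 for the 11 recombination mediators, -1.55 and -1.84 for resection and helicases, -1.32 and -1.81 for damage signalling, -1.81 and -1.78 for chromatin at breaks, and -0.95 and -0.82 for the Fanconi core complex. Members at least 4-fold lower numbered 13 and 15, and those at least 8-fold lower 3 in each. Other lists moved as well: all 30 genes of replication and G1/S were lower (medians -2.17 and -2.12) and all 25 of G2 and mitosis (-2.96 and -3.12), while 10 end joining genes had medians of -0.16 and -0.24 and 13 genes of nucleotide excision -0.59 and -0.56.

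Clspn had the lowest p. Within the fit of the 3 wild type groups it was 8.86, 7.36 and 7.61 CPM in lung, 63.0, 62.5 and 62.4 CPM in experiment 2 and 58.6, 69.2 and 62.3 CPM in experiment 1, with log2 fold changes of -2.98 ± 0.09 and -2.99 ± 0.09 (edgeR adjusted p = 2.4e-09 and 1.9e-09). Fanca of the core complex was 5.38, 5.26 and 4.24 CPM in lung, 42.0, 39.9 and 41.7 CPM in experiment 2 and 39.5, 44.1 and 42.6 CPM in experiment 1 (-3.05 ± 0.10 and -3.08 ± 0.10, edgeR adjusted p = 3.2e-09 and 2.6e-09). Mre11a, the nuclease of the complex named after it, was 8.16, 8.42 and 8.43 CPM in lung, 39.3, 38.1 and 37.4 CPM in experiment 2 and 42.5, 47.5 and 41.5 CPM in experiment 1 (-2.20 ± 0.08 and -2.40 ± 0.08, edgeR adjusted p = 4.2e-09 and 2.2e-09). In all 3 genes the lung libraries lay far below every fibroblast library, and those of Mre11a were tight.

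Exo1 had the lowest fold change. With all 27 libraries scaled together it was 2.72, 3.68 and 2.87 CPM in WT lung, 30.7, 29.6 and 31.3 CPM in WT fibroblasts of experiment 2 and 34.0, 37.3 and 34.4 CPM in those of experiment 1, with log2 fold changes of -3.30 ± 0.12 and -3.50 ± 0.12 (edgeR adjusted p = 5.3e-09 and 3.2e-09). No lung library came near a fibroblast library. Rad54l, the recombination motor, followed beside Fanca and Clspn, at -3.05 and -3.0. Fancd2 was at -2.78 and -2.81, and Brca1, the ubiquitin ligase partner of BARD1, at -2.64 and -2.91. At the other end of those called lower were Fance of the core complex (-0.42 and -0.35), Trp53bp1 (-0.62 and -0.78), the kinase Chek2 and Xrcc3, a recombination mediator (-0.71 and -0.41). With upper-quartile scaling, Fance and Xrcc3 did not pass against experiment 1, leaving 34.

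Among the checkpoint kinases the log2 fold change was -1.32 and -1.81 for Atm, -0.82 and -1.26 for Atr, -2.31 and -2.66 for Chek1 and -0.69 in both for Chek2. Members of the MRE11 complex also differed from Mre11a, with -0.89 and -1.15 for Nbn and -0.91 and -1.28 for Rad50. Differences between members were not themselves tested. Of the tested neighbours that share exon bases with a member, Gas2 beside Fancf (-3.52 and -2.90), Tubgcp4 beside Trp53bp1 (-2.06 and -2.20), Ankrd49 beside Mre11a (-0.92 and -1.17), Lrrc41 beside Rad54l (-0.71 and -0.82), Vrk2 beside Fancl (-0.52 and -0.80), Polg beside Fanci (-0.47 and -0.59) and Klc1 beside Xrcc3 (-0.29 and -0.19) were lower in both comparisons. Zfp276 beside Fanca (0.26 and 0.33) and 2010111I01Rik beside Fancc were higher in both, and Trex1, Fsbp, Fancd2os and Fbxo11 were not called the same way in both. Reads in the shared bases cannot be assigned to 1 gene of a pair.

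Fancc, a core complex subunit, went against the rest; it and the next 2 genes are described because of their values. It was 45.3, 55.1 and 62.2 CPM in WT lung and 65.7, 62.3 and 45.5 CPM in Het lung, against 7.24 to 12.7 CPM over the 21 fibroblast libraries. All 6 lung libraries lay above all 21 fibroblast libraries, and the log2 fold change of WT lung was 2.28 ± 0.14 against experiment 2 and 2.64 ± 0.14 against experiment 1 (edgeR adjusted p = 1.9e-07 and 6.4e-08). The gene (chromosome 13, 63285043 to 63497278, minus strand, GRCm38) shares 185 of its 8359 merged exon bases with 2010111I01Rik on the other strand, which was 93.6 ± 15.8 CPM in WT lung and 63.1 ± 7.07 CPM in fibroblasts of experiment 2 (log2 fold change 0.57, edgeR adjusted p = 0.00152). How many Fancc reads fell in the shared bases was not tested, since the counts are per gene. Per kilobase of merged exon length Fancc moved from place 36 of 39 in experiment 2 fibroblasts (1.35 CPM per kb) to place 4 in lung (6.48 ± 1 CPM per kb), or 17.1 CPM per kb with the longest coding transcript.

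The 2 members that did not pass in either comparison were also core complex genes. Fancg was 10.2 ± 1.43 CPM in WT lung and 9.83 ± 1.23 CPM in experiment 2 (log2 fold change 0.06, 95% interval -0.28 to 0.40, edgeR adjusted p = 0.736), and 9.42 ± 1.09 CPM in experiment 1. Fancl was 7.54 ± 0.56 CPM in WT lung, 7.76 ± 0.724 CPM in experiment 2 (log2 fold change -0.04, 95% interval -0.34 to 0.26, edgeR adjusted p = 0.783) and 8.50 ± 0.743 CPM in experiment 1. Of the 8 core complex genes, 5 were thus lower in lung (Fanca, Fancb, Fance, Fancf and Fancm), 1 was higher and 2 did not pass.

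**Figure D4:**
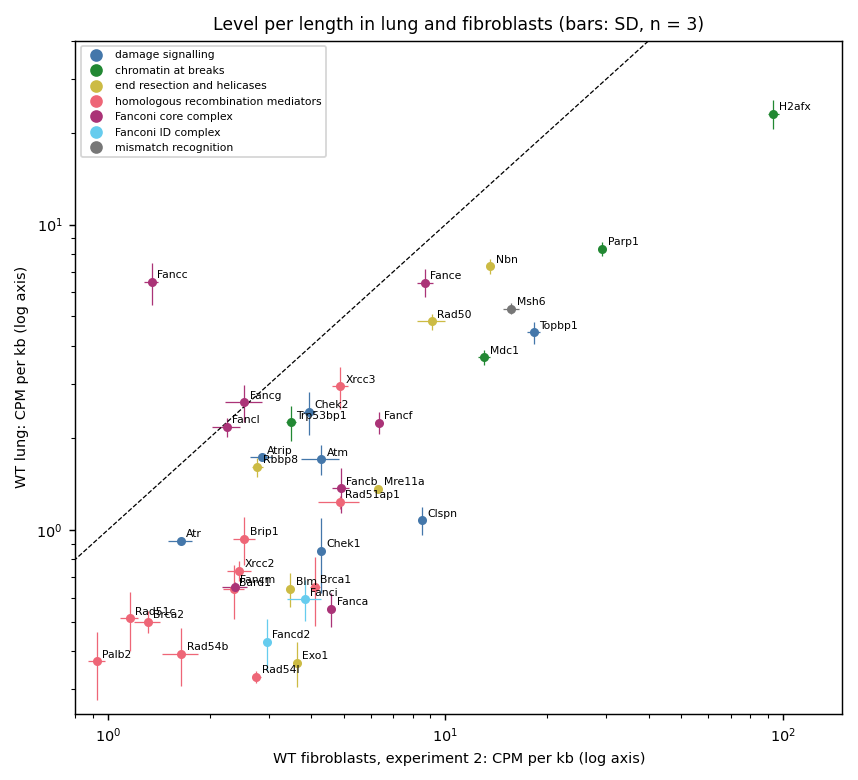
Mean CPM per kilobase of merged exon length of each of the 39 genes in WT fibroblasts of experiment 2 (horizontal log axis) and in WT lung (vertical log axis), with SD bars over 3 libraries, coloured by role; the dashed line marks equal levels. Nearly all genes lie under the line, Fancc lies far above it, and Fancg and Fancl lie on it.

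**Figure D5:**
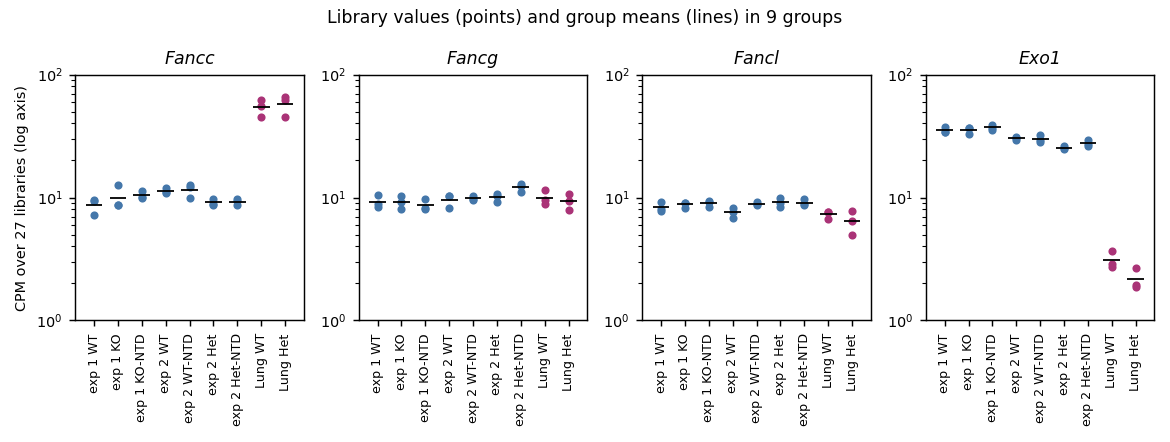
CPM (vertical log axis, 27 libraries scaled together) of Fancc, Fancg, Fancl and Exo1 in each library (points) of the 9 groups, with group means as lines. Fancc is 45.3 to 65.7 CPM in lung and at most 12.7 CPM in fibroblasts, Exo1 is 1.86 to 3.68 CPM in lung and at least 24.95 CPM in fibroblasts, and Fancg and Fancl overlap between lung and fibroblasts.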

How the data were processed

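RNA from mouse embryonic fibroblasts and lung was sequenced in bulk, and the authors deposited 1 table of raw counts per gene for all 27 libraries. Per the submitters' processing notes, TopHat2 2.0.14, Bowtie2 2.2.6 and featureCounts 1.4.6 of Subread were used with the mm10 genome. The annotation and the strand setting are not given in the sources used here. The members, the other gene lists and the promoters shown were chosen with earlier results of these data known.

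Each comparison was fitted across all genes in edgeR 4.0.16 (R 4.3.3) on the counts as deposited, after filterByExpr and TMM scaling, by its quasi-likelihood F test with robust dispersions (two-sided). Calls are Benjamini-Hochberg adjusted p under 0.05 over all genes of a fit. The 3 groups of experiment 1, the 4 of experiment 2 and the 2 of lung were fitted separately; tests across sets used joint fits. Values are mean ± SD of CPM over 3 libraries, log2 fold changes ± SE with 95% intervals. Full values were given for the members past the threshold with the lowest p, up to 5 (Clspn was added as the last of 6 in Het against WT), or for the 3 with the lowest p where fewer than 3 passed and in the secondary comparisons. Levels per kilobase used GENCODE M21 merged exons (GRCm38), and promoters were from RefSeq (GRCm38.p6). The alternatives were DESeq2 1.42.0, RLE and upper-quartile scaling, no filter on low counts, only the groups compared, the replicate number as a block, a macrophage score as covariate and each library left out in turn. The length of the longest protein-coding transcript was added after the data were seen. The code was tested on simulated data. Tables and figures used pandas 2.3.3 and matplotlib 3.10.9.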

Additional observations from a re-analysis of the deposited data

How the results depend on the processing

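Of the counts of members called, those in KO against WT, in each NTD comparison and their interaction, in Het against WT in lung and in lung against fibroblasts stayed within 1.5 times under every alternative run. The 5 lower members in Het against WT became 0 with the macrophage covariate and 1 to 4 when 1 library was left out, and were 7 with DESeq2. In Het-NTD against WT-NTD the 1 higher member became 0 with the covariate, and the 0 lower members became 1 with DESeq2 (Fancc) and 0 to 2 when 1 library was left out. For the KO effect minus the Het effect, DESeq2 called 1 member higher and 1 lower, and leaving out 1 library gave 0 to 3 higher and 0 to 1 lower. For the Het effect in lung minus that in fibroblasts, leaving out 1 library gave 0 to 1 lower. The causes were not tested.

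Same-numbered libraries did not deviate together as a rule (correlations of -0.48 to 0.61, and no comparison had every pair above 0.1), so the numbers were not taken as pairs. Some libraries of different number did deviate together: the highest such correlation with a KO-NTD library was 0.63 for KO 1 and 0.56 for KO 2. The labels name no grouping behind this, and it was not tested. With the replicate block, 6 members were lower in Het against WT (Topbp1 was added), and no other count of members called changed.

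Over all genes, KO against WT called 18 higher and 47 lower. Leaving out 1 library gave 1 to 66 and 23 to 76, and the other settings 10 to 237 and 26 to 242. Intervals in Het against WT were wider in lung (median SE 0.19) than in experiment 2 (0.086). Scaling by library totals without TMM moved 168 of 351 levels by over 1 SD.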
